A study of Mus musculus with 3 samples.

Results

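The 6 genes described here encode a receptor tyrosine kinase with its ligands and a pair of chemokine receptors: Erbb4, Nrg1, Nrg2, Nrg3, Cxcr4, and Ackr3. They are 6 of the 31053 genes listed in each of 3 single-cell count matrices, and they were chosen by name for their roles in the migration of cortical interneurons. Earlier results of these data were known when they were chosen. The ranks and counts of members among all genes given below are therefore descriptions and not independent support. Erbb4 was also one of the genes that the study itself used to describe types of SST+ neurons in these libraries, so its pattern between those types is not independent of that choice.

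The cells came from the neocortex (NCx) of SstCre/+;RCE mice, labeled as strain Sst-Cre; RCEloxP, in which Cre driven by the Sst gene switches on GFP and leaves it on. GFP+ cells were sorted by flow cytometry (FACS) and profiled with 10x Genomics 3′ chemistry, in 1 library per stage: E16.5 with tissue of 6 animals pooled, P1 with 3 animals pooled, and P5 with 3 animals pooled. All 3 groups carry the same alleles, no group was treated, and the reporter marks any cell that once made Cre, including cells without Sst mRNA when collected. Tissue handling differed with age, since P5 tissue had a further enzyme step and P1 and P5 cells were cleared of myelin debris, so stage, library, and handling cannot be told apart. Because each stage is 1 library, no test between stages was possible, and the intervals given below cover counting error only.

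ErbB4 is the receptor through which neuregulins act on many cortical interneurons. Neuregulins are made as membrane proteins and are released by cleavage, and neuregulin signaling is known to attract tangentially migrating interneurons to the cortex and to act later on their synapses. Cxcl12 is a chemokine made by the meninges and by cells of the intermediate zone. Its signaling receptor Cxcr4 and its scavenging receptor Ackr3, formerly called Cxcr7, keep migrating interneurons within their streams until they leave for the cortical plate.

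In GRCm38, Cxcr4 (ENSMUSG00000045382) spans chr1:128588199-128592293 on the minus strand and Ackr3 (ENSMUSG00000044337) spans chr1:90203980-90216751 on the plus strand. The promoters of Cxcr4 and Ackr3 are shown because the levels of these genes had the highest correlation of all pairs of members over classes and libraries. Each is the 250 bases before the start of the gene in RefSeq (GRCm38.p6), at chr1:128592300-128592549 on the minus strand and chr1:90203730-90203979 on the plus strand, 5′ to 3′, with matches to TATAAA and GGGCGG on either strand in capitals.
Cxcr4: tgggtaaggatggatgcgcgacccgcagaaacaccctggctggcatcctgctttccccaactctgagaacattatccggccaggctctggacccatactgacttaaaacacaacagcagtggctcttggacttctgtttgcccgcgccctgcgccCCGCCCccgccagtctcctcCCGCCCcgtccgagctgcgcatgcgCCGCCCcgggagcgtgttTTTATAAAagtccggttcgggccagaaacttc
Ackr3: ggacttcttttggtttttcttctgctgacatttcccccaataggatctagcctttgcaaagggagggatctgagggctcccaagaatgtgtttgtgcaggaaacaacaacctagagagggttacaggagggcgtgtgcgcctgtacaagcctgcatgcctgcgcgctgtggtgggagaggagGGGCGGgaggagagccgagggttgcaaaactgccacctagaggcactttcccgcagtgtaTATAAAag
The Cxcr4 window held 3 matches to GGGCGG and 2 matches to TATAAA that overlap on opposite strands, and the Ackr3 window held 1 match to each. GC made up 61.2% of the Cxcr4 window and 54% of the Ackr3 window, against a median of 52.4% over 32851 RefSeq windows of the same kind, of which 12.4% held TATAAA and 32.7% held GGGCGG. The sequence ACGTG, 1 form of the hypoxia-response core, was in neither window and in 16.6% of all windows. The form GCGTG is in both printed windows and was not counted over all windows.

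Erbb4 (ENSMUSG00000062209) lies on chromosome 1 of GRCm38 at 68032186 to 69108059 on the minus strand. Nrg1 (ENSMUSG00000062991) is on chromosome 8 at 31814551 to 32884029, Nrg2 (ENSMUSG00000060275) on chromosome 18 at 36017652 to 36197380, and Nrg3 (ENSMUSG00000041014) on chromosome 14 at 38368952 to 39473088, all on the minus strand. The Erbb4 locus overlaps 8 annotated genes of the same strand and the Nrg3 locus overlaps 1, and how reads shared with them were assigned is not given in the sources used here. The loci of Nrg1, Nrg2, Cxcr4, and Ackr3 overlap no annotated gene on their strand.

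The libraries held 13429055 to 25638779 UMIs (unique molecular identifiers, each standing for 1 captured mRNA molecule). Cells were kept with over 700 genes and under 10% mitochondrial (mt-) UMIs, which left 3952 of 4478 E16.5 barcodes, 2501 of 4440 P1 barcodes, and 2980 of 3406 P5 barcodes. The P1 library stood apart, with 1614 barcodes at or over 10% mt- UMIs against 347 and 276 in the others. Pairs of libraries shared 1 to 6 barcodes. The median depth of kept cells was 3293 to 5577 UMIs. Levels are given as CPM, the summed UMIs of a gene per 1000000 summed UMIs of all genes other than mt-, ribosomal protein, and Y-chromosome genes, with exact Poisson intervals at 95%.

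Within each library, 3 classes of cells were compared. Nos1 cells had at least 1 UMI of Nos1, a marker of long-range projecting SST+ neurons, and numbered 67, 434, and 547 in order of age. Sst-high cells had at least 5 Sst UMIs and no Nos1 UMI, and numbered 1920, 757, and 896. Lhx6 cells without Sst had at least 1 UMI of Lhx6, a transcription factor of interneurons born in the medial ganglionic eminence, and no Sst UMI, and numbered 776, 491, and 559, of which 2, 26, and 14 also had Nos1. Median depth differed between the classes, with 7863, 3704.5, and 3073 UMIs for Nos1 cells, 6457, 4557, and 5542.5 for Sst-high cells, and 4979.5, 3117, and 3316 for Lhx6 cells without Sst, in order of age. The Nos1, Chodl, and Npy markers of long-range cells summed to 14582, 30442, and 42409 CPM in the Nos1 cells and to 2794, 2468, and 1580 CPM in the Sst-high cells. Nos1 itself defines these classes, so its part of the sums is set by the rule. That part was 310, 2228, and 3063 CPM in the Nos1 cells and 0 in the Sst-high cells, and the rest was Chodl and Npy. Markers of excitatory neurons were in the Nos1 cells of the younger stages, since their 5 genes summed to 668 CPM at E16.5 and 174 CPM at P1 there, against 8.27 and 7.22 CPM in the Sst-high cells. At P5 the sums were 6.87 and 2.04 CPM. Markers of astrocytes, oligodendrocyte precursors, microglia, Cajal-Retzius cells, and intermediate progenitors had 0 to 6 UMIs in each list, class, and library. Markers of Meis2 neurons summed to 201, 97.0, and 22.3 CPM in the Nos1 cells and to 77.8, 48.3, and 12.5 CPM in the Sst-high cells. Lhx6 cells without Sst also had more of both kinds of markers than the Sst-high cells at every stage. In order of age, the Meis2 list summed to 100, 108, and 26.9 CPM there and the excitatory list to 15.7, 29.5, and 9.94 CPM. The part of these other markers in the differences between classes was not tested, apart from the ratios without excitatory-marked cells given below.

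Cxcr4 and Ackr3 were abundant at E16.5 and P1 and nearly gone at P5. Over all kept cells, and in the order E16.5, P1, and P5, the level of Cxcr4 was 96.8 CPM (92.6 to 101), 76.4 CPM (70.9 to 82.1), and 4.14 CPM (3.04 to 5.51). In bulk sums of this kind, fewer cells with a transcript and less transcript per cell cannot be told apart. Ackr3 was at 143 CPM (138 to 148), 87.8 CPM (81.9 to 93.9), and 5.47 CPM (4.19 to 7.01). Both were lower in the P5 library than in the others, while the E16.5 and P1 levels lay within 2-fold of each other. From P1 to P5, Cxcr4 was 18.4-fold lower (13.7 to 25.3) and Ackr3 16.1-fold lower (12.4 to 21.1). Ordered from the lowest ratio on CPM plus 1, Cxcr4 had rank 2 and Ackr3 rank 3 of the 14714 genes with at least 10 UMIs in these libraries together. Of these genes, 9.56% were more than 2-fold lower at P5, and 2 of the 6 members were. From E16.5 to P5 the ratios were 23.4-fold (17.5 to 31.9) and 26.2-fold (20.4 to 34.3) lower, at ranks 7 and 5 of 15175 genes, and this comparison does not use the P1 library.

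The drop in both chemokine receptors was found in each class of cells. In the Sst-high cells Cxcr4 went from 60.3 CPM at P1 to 4.30 CPM at P5, 14.0-fold lower (8.78 to 23.7), and Ackr3 from 66.8 to 4.30 CPM, 15.5-fold lower (9.74 to 26.2). In Lhx6 cells without Sst, Cxcr4 went from 119 to 4.68 CPM and Ackr3 from 144 to 7.01 CPM. They were 25.4-fold (12.6 to 59.7) and 20.5-fold (11.5 to 40.2) lower. In the Nos1 cells Cxcr4 went from 39 UMIs to 3 UMIs, a ratio of 0.0767 (0.0152 to 0.241). Ackr3 went from 45 UMIs to 0 UMIs in 547 cells. This is 15.0-fold lower when the P5 count is set at the limit of 3 that a count of 0 allows. By the counting interval it is at least 11.7-fold lower. More than 2-fold lower at P5 than at P1 were 2 members in the Sst-high cells (against 11.6% of genes), 2 in Lhx6 cells without Sst (against 13%), and 3 in the Nos1 cells (Erbb4 besides, against 13.4%).

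The share of cells with a Cxcr4 or Ackr3 UMI was also lowest at P5, with and without equal depth. Cxcr4 was found in 32.3% (30.8 to 33.7), 20.2% (18.7 to 21.9), and 1.58% (1.16 to 2.09) of kept cells in order of age, by exact Clopper-Pearson intervals. With all cells cut down at random to a depth of 2000 UMIs (thinning), Cxcr4 remained in 17.3% of 3615 cells, 13.9% of 1828 cells, and 0.778% of 2443 cells. Ackr3 was found in 43.7%, 24.2%, and 1.91% of cells, and in 22.8%, 16.8%, and 1.11% after thinning. Too shallow for thinning were 337, 673, and 537 cells. At P5 no Cxcr4-positive cell had more than 1 Cxcr4 UMI, whereas single cells reached 7 UMIs at E16.5 and 8 UMIs at P1. As a rough guide to background, cells marked by excitatory neuron genes were used (45, 44, and 25 cells, with a median of 11905, 5710, and 3463 UMIs). Whether these cells lack the receptors was not tested. Cxcr4 was in 6.67% of them at E16.5, in 6.82% at P1, and in none of the 25 cells at P5, which allows a share of up to 12%. Ackr3 was in 8.89%, 2.27%, and none of them. The shares of both genes in all kept cells at E16.5 and P1 lay above these values, and at P5 the comparison had too few cells to tell a low level from background.

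Erbb4, the neuregulin receptor, was highest at P1 and lowest at P5. Its level in order of age was 304 CPM (296 to 311), 342 CPM (330 to 354), and 176 CPM (169 to 184). The P5 level was 1.94-fold lower (1.83 to 2.05) than the P1 level and 1.72-fold lower (1.64 to 1.81) than the E16.5 level, and the difference between E16.5 and P1 was 1.13-fold (1.08 to 1.17). Under stricter limits on cells (over 1000 genes and under 5% mt- UMIs) this small difference turned to 0.801-fold. Erbb4 was found in 68.8%, 51.6%, and 32.3% of kept cells, and in 40.9%, 36.5%, and 21.9% at equal depth.

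The neuregulin genes went the other way or stayed level. Nrg3, whose product binds ErbB4, was at 44.2 CPM (41.4 to 47.1), 48.6 CPM (44.3 to 53.2), and 77.4 CPM (72.4 to 82.7) at E16.5, P1, and P5, which is 1.75-fold higher (1.60 to 1.92) at P5 than at E16.5. Nrg1, the founding neuregulin, was sparse, with 113, 87, and 145 UMIs, or 5.29 CPM (4.36 to 6.36), 9.09 CPM (7.28 to 11.2), and 12.8 CPM (10.8 to 15.0). It was 2.42-fold higher (1.88 to 3.12) at P5 than at E16.5. The stricter limits gave 2.35-fold, with 1.01-fold from E16.5 to P1 and 2.33-fold from P1 to P5, so the step at which Nrg1 differed depended on them. Nrg2 was at 14.9 CPM (13.3 to 16.7), 15.4 CPM (13.0 to 18.1), and 13.0 CPM (11.0 to 15.3), and its ratio of P5 to E16.5 was 0.873 (0.714 to 1.06). From E16.5 to P5, 1 of 6 members was more than 2-fold higher (Nrg1, against 17.3% of all genes) and 2 were more than 2-fold lower (Cxcr4 and Ackr3, against 11.5%). From E16.5 to P1 no member passed 2-fold over all kept cells, while 11% of genes were higher and 3.15% lower. From P1 to P5 no member was more than 2-fold higher, against 7.82% of genes.

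**Figure D1:**
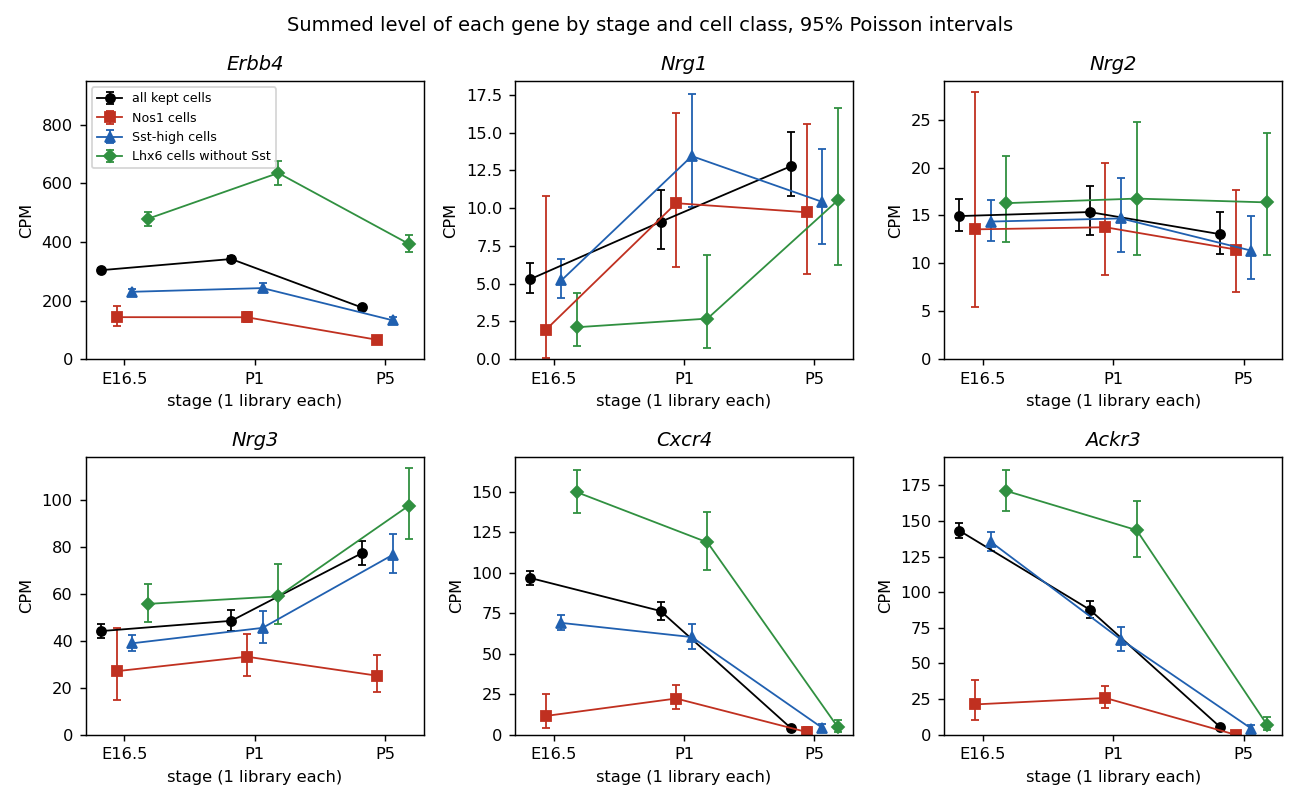
Summed level of each of the 6 genes in CPM (y axis, from 0) at E16.5, P1, and P5 (x axis, 1 library each), in all kept cells and in 3 classes of cells, with bars for exact 95% Poisson intervals. Cxcr4 and Ackr3 lay near 0 at P5 in every class, Erbb4 was highest in Lhx6 cells without Sst at each stage, and the Nos1 cells were lowest for Erbb4, Cxcr4, and Ackr3.

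The Nos1 cells had less of both chemokine receptors than the Sst-high cells of the same library. At E16.5 Cxcr4 was at 11.6 CPM (6 UMIs) against 69.0 CPM, 5.94-fold lower (2.72 to 16.2), and Ackr3 at 21.3 CPM (11 UMIs) against 135 CPM, 6.36-fold lower (3.54 to 12.8). At P1 Cxcr4 was at 22.4 CPM against 60.3 CPM, 2.69-fold lower (1.91 to 3.88), and Ackr3 at 25.8 CPM against 66.8 CPM, 2.58-fold lower (1.88 to 3.63). At P5 both were too rare for a firm ratio, with 3 UMIs against 19 for Cxcr4, a ratio of 0.399 (0.0756 to 1.36). Ackr3 had 0 UMIs against 19, which is 2.51-fold lower with the count of 0 set at 3. That value leaves out the counting error of the 19 UMIs. In single cells thinned to 2000 UMIs at P1, Cxcr4 was in 4.21% (2.38 to 6.85) of Nos1 cells and 11.4% (9.01 to 14.3) of Sst-high cells, and Ackr3 in 6.18% (3.91 to 9.21) and 14.8%. Without thinning, Cxcr4 was in 7.37% (5.10 to 10.2) and Ackr3 in 8.53% (6.07 to 11.6) of P1 Nos1 cells. In excitatory-marked cells, which were deeper and of which 16 of 44 were themselves Nos1 cells, the unthinned shares were 6.82% and 2.27%. After thinning, Cxcr4 was in none of 41 of them, which allows a share of up to 7.32%, and Ackr3 in 2.44%, so these few cells did not settle whether the shares in Nos1 cells lay above background.

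Erbb4 and Nrg3 were also lower in the Nos1 cells. Erbb4 was at 143, 143, and 65.8 CPM in Nos1 cells in order of age, against 230, 243, and 132 CPM in Sst-high cells. It was 1.61-fold (1.27 to 2.05), 1.70-fold (1.48 to 1.96), and 2.01-fold (1.64 to 2.48) lower. At E16.5, 14 of the 67 Nos1 cells were marked by excitatory genes, and the Erbb4 ratio moved from 0.623 to 0.855 without such cells and to 0.344 with thinned cells. At P1 and P5 it was 0.584 and 0.500 without excitatory-marked cells. Nrg3 was at 27.1, 33.3, and 25.2 CPM in Nos1 cells and at 39.0, 45.6, and 76.8 CPM in Sst-high cells, so the classes lay close at the first 2 stages and apart at P5, where Nrg3 was 3.05-fold lower (2.22 to 4.27). Whether the ratio differs between stages was not tested. Nrg1 had ratios of 0.371 (0.00926 to 2.14) at E16.5, 0.768 (0.424 to 1.33) at P1, and 0.934 (0.502 to 1.66) at P5, and the ratio of Nrg2 at P5 was 1.01 (0.570 to 1.73). The intervals of both genes held 1 at each stage. More than 2-fold lower in Nos1 cells were 3 members at E16.5 (Nrg1 on 1 UMI, Cxcr4, and Ackr3, against 10.2% of genes), 2 at P1 (Cxcr4 and Ackr3, against 4.24%), and 2 at P5 (Nrg3 and Ackr3, against 7.01%), and no member was more than 2-fold higher, against 5.78%, 3.66%, and 4.63% of genes. These counts use CPM plus 1, on which Erbb4 at P5 did not pass 2-fold.

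Erbb4 differed within the Nos1 class. Cells with 1 or 2 Nos1 UMIs had 176, 252, and 176 CPM of Erbb4 in order of age, and cells with 3 or more had 69.7, 75.2, and 39.7 CPM. At P1 the same bands had 48.0 and 6.50 CPM of Cxcr4 and 54.0 and 8.36 CPM of Ackr3, while at E16.5 the few counts of Ackr3 gave 16.7 and 31.7 CPM. With the class limited to cells with 3 or more Nos1 UMIs, the P1 ratios to Sst-high cells were 0.310 for Erbb4, 0.108 for Cxcr4, 0.125 for Ackr3, and 0.367 for Nrg3. Cells just outside the Sst-high class, with 1 to 4 Sst UMIs and no Nos1, had 386, 472, and 173 CPM of Erbb4.

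Lhx6 cells without Sst had the highest Erbb4 of the 3 classes at every stage. Erbb4 was at 479 CPM (456 to 503), 636 CPM (596 to 678), and 394 CPM (365 to 425) at E16.5, P1, and P5, which is 2.08-fold (1.96 to 2.22), 2.62-fold (2.39 to 2.87), and 2.98-fold (2.66 to 3.33) higher than in Sst-high cells. Among all genes tested, Erbb4 ranked 153 from the highest of 13227, 108 of 12184, and 112 of 12505. At equal depth, Erbb4 was found in 56.5%, 59.4%, and 40.5% of Lhx6 cells without Sst and in 33.0%, 27.2%, and 17.8% of Sst-high cells. The intervals of the 2 classes did not overlap at any stage. In excitatory-marked cells Erbb4 was at 60.3 CPM (40.4 to 86.5), 115 CPM (78.7 to 162), and 0 UMIs.

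Cxcr4 and Ackr3 stood higher in Lhx6 cells without Sst at the first 2 stages. Cxcr4 was at 150 CPM against 69.0 CPM at E16.5 (2.17-fold, 1.94 to 2.42) and 119 CPM against 60.3 CPM at P1 (1.97-fold, 1.61 to 2.40). Ackr3 was at 171 CPM against 135 CPM at E16.5 (1.26-fold, 1.15 to 1.39) and 144 CPM against 66.8 CPM at P1 (2.15-fold, 1.79 to 2.58). At P5, with 8 and 12 UMIs, the ratios were 1.09 (0.412 to 2.60) and 1.63 (0.722 to 3.54). Nrg1 was the member that was lower in these cells, with 7 and 4 UMIs at E16.5 and P1 and ratios of 0.405 (0.157 to 0.882) and 0.199 (0.0525 to 0.541), and at P5 its ratio was 1.01 (0.551 to 1.78). Nrg3 was 1.43-fold (1.20 to 1.70), 1.29-fold (0.992 to 1.68), and 1.27-fold (1.05 to 1.53) higher, and Nrg2 1.13-fold (0.820 to 1.55), 1.14-fold (0.685 to 1.85), and 1.45-fold (0.876 to 2.34). More than 2-fold higher were Erbb4 and Cxcr4 at E16.5 (2 of 6, against 1.34% of genes), Erbb4 and Ackr3 at P1 (2 of 6, against 2.52%), and Erbb4 at P5 (1 of 6, against 3.29%). More than 2-fold lower was Nrg1 at P1, against 7.95% of genes, and no member at E16.5 or P5, against 5.42% and 4.21%.

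**Figure D2:**
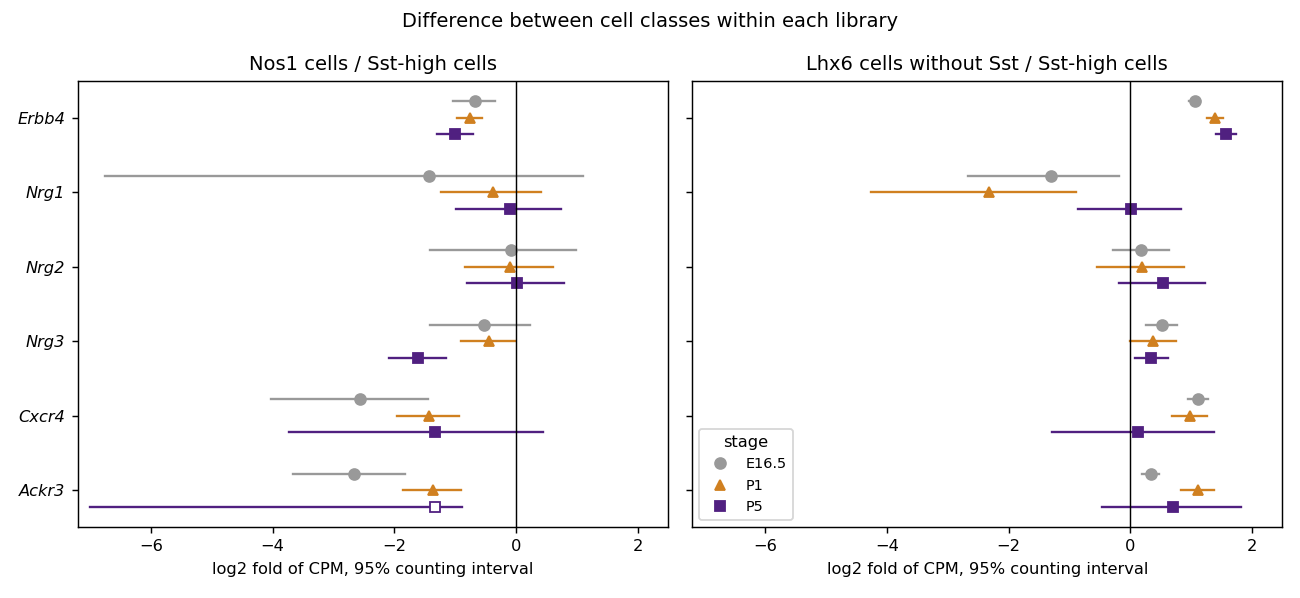
Ratio of CPM between classes of cells on a log2 axis (x), for Nos1 cells over Sst-high cells and for Lhx6 cells without Sst over Sst-high cells, in each library, with bars for exact 95% counting intervals and an open square for a bound from 0 UMIs. Erbb4 lay above 0 in Lhx6 cells without Sst and below 0 in Nos1 cells at each stage, and Cxcr4 and Ackr3 lay below 0 in Nos1 cells at E16.5 and P1.

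Among Lhx6 cells without Nos1, the CPM of Erbb4 was lower in each band with more Sst. At E16.5 it was at 481, 392, 287, and 196 CPM in cells with 0, 1 to 4, 5 to 19, and 20 or more Sst UMIs. At P1 the levels were 646, 472, 270, and 210 CPM. At P5 they were 393, 169, 135, and 109 CPM, so the largest step there was between cells with no Sst UMI and cells with 1 to 4. Neighboring bands had intervals that did not overlap at E16.5 and P1, and at P5 the 2 highest bands overlapped (122 to 149 and 90.7 to 130 CPM). At equal depth, Erbb4 was in 56.6%, 47.6%, 38.8%, and 30.1% of cells over the bands at E16.5, in 59.5%, 43.2%, 28.1%, and 27.8% at P1, and in 40.5%, 20.0%, 16.3%, and 19.4% at P5. The order thus held over all 4 bands at E16.5, while at P1 the 2 highest bands were not distinct, with overlapping intervals. At P5 the intervals of all bands with Sst overlapped, and the band with 0 Sst UMIs stood apart.

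The chemokine receptors followed Sst in another way. At E16.5 Cxcr4 was level at 150 and 149 CPM in the 2 lowest bands and was 115 and 41.5 CPM in the higher ones. Ackr3 was at 172, 171, and 165 CPM in the first 3 bands and 123 CPM in the highest, so at E16.5 most of its difference was in cells with 20 or more Sst UMIs. At P1 Cxcr4 was at 123, 117, 73.3, and 40.5 CPM and Ackr3 at 146, 135, 94.1, and 29.2 CPM. At P5 Cxcr4 was at 3.20 to 5.25 CPM in all bands, with no order. The sparse Nrg1 had no order that held across stages, at 2.12, 6.61, 6.26, and 3.96 CPM at E16.5, 2.91, 3.29, 12.5, and 14.3 CPM at P1, and 9.62, 17.2, 11.2, and 6.27 CPM at P5. Nrg3 was lower with more Sst at E16.5, at 55.7, 53.4, 43.6, and 35.5 CPM, and at P5, at 99.2, 84.3, 80.5, and 60.0 CPM. At P1 Nrg3 was at 54.6, 57.6, 41.5, and 47.1 CPM, without that order. Cells with more Sst were also deeper, with medians of 4979.5 to 7566.5 UMIs over the bands at E16.5, 3086 to 9054.5 at P1, and 3316 to 7311 at P5, and CPM is a ratio to depth.

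**Figure D3:**
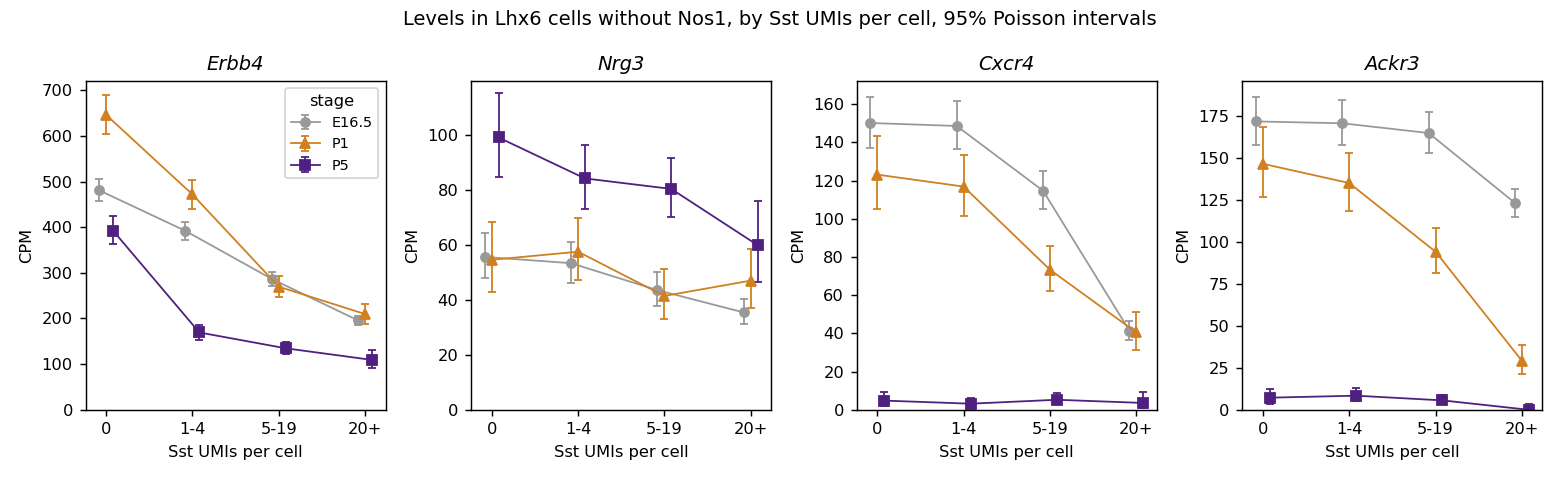
Level in CPM (y axis, from 0) of Erbb4, Nrg3, Cxcr4, and Ackr3 in Lhx6 cells without Nos1, by the number of Sst UMIs in the cell (x axis) and by stage (color), with exact 95% Poisson intervals. The CPM of Erbb4 was lower in each band at every stage, from 646 CPM at 0 Sst UMIs to 210 CPM at 20 or more at P1.

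Ackr3 was found more often in cells that also had a Cxcr4 UMI. Among Lhx6 cells without Nos1 thinned to 2000 UMIs, Ackr3 was in 31.6% (27.7 to 35.6) of 561 cells with a Cxcr4 UMI and in 22.4% (20.8 to 24.0) of 2539 cells without one at E16.5. At P1 it was in 30.0% (23.9 to 36.5) of 217 cells and 18.0% (15.8 to 20.4) of 1098 cells. The difference was also found within the Sst-high cells, at 32.4% against 20.0% at E16.5 and 26.1% against 13.3% at P1, where the intervals of 16.3 to 38.1% and 10.5 to 16.5% overlapped. At P5 13 such cells with Cxcr4 remained and none had Ackr3, which allows a share of up to 23.1%. Erbb4 was in 47.2% (43.0 to 51.5) of Lhx6 cells with Cxcr4 and 41.5% (39.5 to 43.4) of those without at E16.5, and in 41.9% (35.3 to 48.8) and 41.1% (38.1 to 44.1) at P1. The intervals for Erbb4 overlapped at both stages. Cells of 1 library are not replicates, and these shares describe the libraries.

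**Figure D4:**
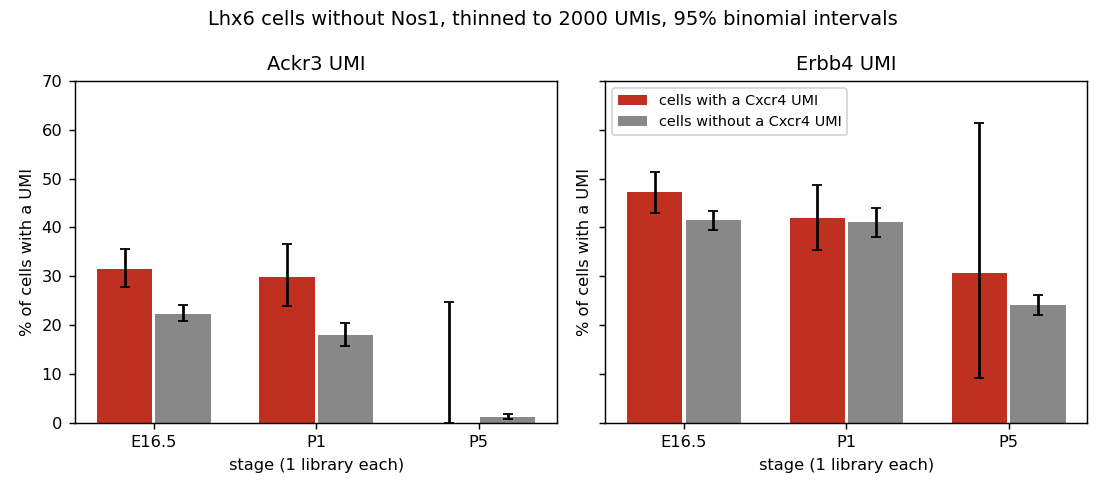
Share of Lhx6 cells without Nos1, thinned to 2000 UMIs, that had an Ackr3 UMI or an Erbb4 UMI (y axis, percent), in cells with and without a Cxcr4 UMI, by stage (x axis, 1 library each), with exact 95% binomial intervals. Ackr3 was more frequent in cells with Cxcr4 at E16.5 and P1, and at P5 13 cells had Cxcr4 and none of them Ackr3.

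Over the 9 values of 3 classes in 3 libraries, Cxcr4 and Ackr3 had a Pearson correlation of 0.971 on the log2 scale of CPM plus 1, the highest of all pairs of members, and Erbb4 and Nrg2 one of 0.929, though Nrg2 spanned few CPM. These 9 points share libraries and cells, so the correlations are a description. Of 7566 genes with a mean of at least 20 CPM, those most like Erbb4 were Zeb2 (0.972), Dscaml1 (0.969), and Ets1 (0.969). Those most like Cxcr4 were Cep290 (0.982), Usp47 (0.981), and Fam133b (0.980), and those most like Ackr3 were Smc6 (0.989), Bahcc1 (0.987), and Shd (0.978). The nearest to Nrg3 were Yars (0.949), Gabrb2 (0.947), and Scrt1 (0.931). For the sparse Nrg1 they were Zdhhc18 (0.961), Arl2bp (0.953), and Pcdh10 (0.952), and for Nrg2 Rbak (0.982), Rprd1b (0.970), and Abhd17c (0.969).

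The other genes of the Cxcl12 pathway did not share the low P5 level of its receptors. Among 12 measured genes of the Cxcl12 axis, 3 were more than 2-fold higher at P1 than at E16.5 (against 11% of all genes): Grk3, a kinase of activated receptors, at 190 against 79.8 CPM, and the ligands Cxcl12 and Cxcl14, at 1.78 and 11.2 CPM, which are named although below the 20 CPM set for naming. From P1 to P5, 1 of the 12 was more than 2-fold lower, the inhibitory G protein subunit Gnai3, at 33.2 against 67.5 CPM, a share near the 9.56% of all genes. From E16.5 to P5, 2 of the 12 were more than 2-fold higher (against 17.3%), Arrb1, an arrestin, and Grk2, a receptor kinase, at 101 against 36.8 CPM and 120 against 43.3 CPM. The median log2 ratio of the 12 genes was 0.58 from E16.5 to P1, -0.10 from P1 to P5, and 0.49 from E16.5 to P5, against 0.18, -0.08, and 0.08 over all genes and 0.09, -0.58, and -0.48 over the members. Among 8 adaptors of ErbB4 signaling at P5, 1 was more than 2-fold higher and 1 lower in Lhx6 cells without Sst than in Sst-high cells (against 3.29% and 4.21% of genes). The higher one was Erbin, at 53.8 against 25.1 CPM. In Nos1 cells 1 of the 8 was higher and none lower than in Sst-high cells (against 4.63% and 7.01%). It was Pik3r3, a regulatory subunit of PI3-kinase, at 58.9 against 26.0 CPM. Of the 7 genes for the cleavage of neuregulins and ErbB4, 2 were more than 2-fold lower at P5 than at P1 (against 9.56% of genes). They were the protease gene Adam10 (38.7 against 86.6 CPM) and the gamma-secretase gene Ncstn (7.76 against 24.8 CPM). Psen2 was more than 2-fold higher at P5 than at E16.5 (1 of 7, against 17.3%), and Aph1a and Ncstn were lower (2 of 7, against 11.5%). Of the 11 other ErbB receptors and ligands, 4 had enough UMIs over all kept cells. Between stages 1 of the 4 passed 2-fold there, higher at P1 than at E16.5 (against 11% of genes). It was Egfr, at 2.40 against 0.421 CPM, named although below 20 CPM. Between classes, the ligand gene Tgfa was at 27.1 CPM in Nos1 cells against 7.46 CPM in Sst-high cells at E16.5 and at 19.5 against 5.89 CPM at P5. It was the 1 of 3 tested genes more than 2-fold higher there (against 5.78% and 4.63% of genes), and none was at P1. Another of the 3 was lower in Nos1 cells at E16.5 and P1 (against 10.2% and 4.24%). In Lhx6 cells without Sst, 1, 2, and 1 of 3 were lower than in Sst-high cells in order of age, Tgfa each time (against 5.42%, 7.95%, and 4.21%).

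Over all kept cells, more genes of the migrating and immature state passed 2-fold between E16.5 and P1 than between P1 and P5. Cxcr4 and Ackr3 passed it there between P1 and P5 and not before. The classes differed in this. In Sst-high cells Ackr3 also passed 2-fold at the first step, from 135 CPM at E16.5 to 66.8 CPM at P1. As many immature genes passed it at each step in Sst-high cells and in Nos1 cells, and more at the first step in Lhx6 cells without Sst. Of 14 such genes over all kept cells, 6 were more than 2-fold lower at P1 than at E16.5 (against 3.15% of all genes), 4 at P5 than at P1 (against 9.56%), and 8 at P5 than at E16.5 (against 11.5%), and none was higher. The median log2 ratio of the 14 genes was -0.81 from E16.5 to P1 and -0.57 from P1 to P5, against 0.18 and -0.08 over all genes. Between P1 and P5 the 4 were Igfbpl1, at 8.55 against 111 CPM, Sox11, at 489 against 2024 CPM, Sox4, at 386 against 915 CPM, and Dlx2, at 30.0 against 133 CPM, all transcription factors but Igfbpl1. Of 12 genes of later neuronal function, 7 were more than 2-fold higher at P5 than at E16.5 (against 17.3% of all genes), among them Cplx1 (458 against 61.6 CPM), Grin2a (214 against 26.0 CPM), and Kcnc2 (226 against 44.4 CPM), and none was lower. At E16.5, 3 of these 12 genes were more than 2-fold lower in Lhx6 cells with Cxcr4 than in those without, among them Grin2a (8.22 against 28.5 CPM) and Nefl (6.04 against 31.0 CPM). No gene of the immature state passed 2-fold between these cells, among which 0.254% of all genes were higher and 3.53% lower. The difference in later genes was not found at the other stages, since none of them passed 2-fold at P1 and Nefl was at 37.5 CPM on 6 UMIs with Cxcr4 against 14.9 CPM at P5. The Nos1 cells, which were low in both chemokine receptors, were not low in the whole immature list. At P5, 4 of the 14 were more than 2-fold higher in Nos1 cells than in Sst-high cells (against 4.63% of all genes). Among the 4 were Sp9, at 410 against 28.1 CPM, and Sox4, at 700 against 194 CPM. More than 2-fold lower was 1 of the 14, a share near the 7.01% of all genes.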

How the data were processed

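GFP+ cells of 3 stages were profiled in 1 library of pooled animals each. The authors aligned reads with STAR in Cell Ranger (3.1.0 for E16.5 and P5, 3.0.2 for P1, per the file headers) to GRCm38 and deposited UMI counts per gene and cell, as whole numbers that were not normalized. Total counts were 25638779, 15654107, and 13429055 UMIs. Counts of kept cells were summed per class. Folds were taken between CPM values with exact conditional binomial intervals at 95%, and a count of 0 was set to the limit of 3. Genes past 2-fold were counted on CPM plus 1, with at least 10 UMIs on both sides together. Python 3.11.15, numpy 2.4.6, scipy 1.17.1, and pandas 2.3.3 were used. The fold step was tested on simulated data. No doublet caller was run. With 1 library per stage no test or p-value was possible. Excitatory-marked cells had at least 3 UMIs over 5 genes (Neurod2, Neurod6, Tbr1, Slc17a7, and Slc17a6) and more of these than of Gad1 plus Gad2. Named genes were the members, pathway genes at 20 CPM or more in a class that passed 2-fold, and the 3 genes most like each member. Members and lists were chosen with earlier results of these data known. The alternatives were other filters on cells and genes, other class limits, other CPM totals, and thinning to 2000 UMIs. Gene positions are from GENCODE M21. The result of 1 adaptor gene is not reported here.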

Additional observations from a re-analysis of the deposited data

How the results depend on the processing

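With 1 library per stage, depth and the number of cells limit the P5 values of Cxcr4 and Ackr3 and all values of Nrg1, and no alternative can stand for a second library. No paired analysis was possible because each stage has 1 library and no replicate numbers. Of 444 recomputed folds, 389 stayed within the counting interval of the reported fold, 55 left it, and none of those past 2-fold turned direction. In 43 of 54 folds the direction held in every alternative. No fold could be given in 5 cases with 0 UMIs in the Nos1 cells: Nrg1 at E16.5 with at least 3 Nos1 UMIs, without excitatory-marked cells, and thinned, and thinned Nrg2 at E16.5 and Cxcr4 at P5. For P5 over E16.5, limits of over 1000 genes and under 5% mt- UMIs gave 0.513 for Erbb4, 1.45 for Nrg3, and 0.0205 for Ackr3, and thinning gave 1.15 for Nrg2. For Nos1 over Sst-high cells at P5, Erbb4 was at 0.402 as a mean of single-cell CPM and 0.300 with at least 3 Nos1 UMIs. The Ackr3 ratio with 0 UMIs set at 3 was 0.661 under the stricter limits, 0.778 with at least 10 Sst UMIs, and 0.813 after thinning, since fewer UMIs remained. Counts of genes past 2-fold moved with the filter on UMIs and the pseudocount. With a pseudocount of 5 CPM, 1591 genes were higher and 1151 lower for P5 over E16.5, 321 and 381 for Nos1 over Sst-high cells, and 159 and 174 for Lhx6 cells without Sst over Sst-high cells, against 2625, 1749, 582, 880, 412, and 527 as reported. With at least 30 UMIs, 384 were higher in Nos1 cells, and 258 were higher and 304 lower in Lhx6 cells without Sst. With no minimum, 960 were higher in Nos1 cells and 648 in Lhx6 cells without Sst.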
